A study of Capra hircus with 2 samples.

Results

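Genes of the cell division cycle were followed in longissimus thoracis, a muscle along the back, of Chinese Xuhuai goats at 2 ages. The set held 8 genes, taken by their identity as cell cycle genes, with earlier results of these data known. It comprised 5 mitotic genes (CDK1, CCNA2, CCNB1, CCNB2 and BIRC5), the replication factor PCNA and the D cyclins CCND1 and CCND2. They are 8 of the 11663 transcript accessions with reads in either library. Reads were found for all 8 in the fetal library and for 7 at 6 months, CDK1 being the exception. The files list RefSeq transcript accessions without symbols. The symbols used here are those of the cattle RefSeq records with these accessions, so goat reads were counted under cattle transcripts. How well the reads of each gene match across the species was not tested, which limits comparisons of level and coverage between genes.

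One library came from fetal muscle at day 90 of a 150-day gestation and the other from muscle of goats aged 6 months. The labels give no genotype or treatment for either, and do not state how many animals were used. The sampling text for the 6-month muscle repeats the fetal text, so how that muscle was taken is not known here. With 1 library for each age there was no replicate check. Every interval below covers counting error only. It is a 95% interval unless said to be widened for 28 comparisons, which makes it 99.8%. No p-value was computed.

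A cell that divides passes from G1 through DNA replication in S phase to G2 and mitosis, driven by kinases that act only with a cyclin partner. D cyclins link growth signals to the decision to leave G1. PCNA is the ring that holds DNA polymerases on the template, and it also serves DNA repair. Cyclin A2 acts in S phase and again before mitosis, and the B cyclins activate CDK1 to start mitosis. BIRC5, or survivin, belongs to the complex that guides chromosome segregation. In developing muscle, myoblasts divide and then leave the cycle as they fuse, and the nuclei of mature fibres do not divide.

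The libraries held 12811117 fetal and 9144138 6-month unique reads. Levels are given as the deposited RPKM, that is, reads scaled to the length of the transcript and to the read total of the library. As RPKM is relative to the library's reads, a general shift between libraries enters every value. For accessions that reached an RPKM of 1 in each library (8201), that shift had a median of 0.58 log2 units toward the fetal side, or 1.49-fold. The labelled tissue and other cell types could not be checked with marker genes, because a goat RefSeq gene table (assembly ARS1.2) held 0 of the 11663 accessions. For the same reason a list of 59 other cell cycle genes (further replication, mitosis and G1 genes and inhibitors) gave no values.

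All 8 genes had more RPKM in fetal than in 6-month muscle, by 5.51-fold for PCNA up to 36.8-fold for CCNB2 where reads were found at both ages. The CDK1, CCNB2 and BIRC5 levels at 6 months lay under an RPKM of 1, which held for 288 (4.1%) of 7016 accessions with a fetal RPKM of at least 5. That minimum was on the fetal level alone, which favours a fetal excess, so this share is a description only. The highest 6-month level among the 8 genes, that of PCNA, was 10.2. The counts that follow use the difference in log2(RPKM + 1), fetal minus 6 months, among 9705 accessions that reached an RPKM of 1 in either library. A difference of at least 1 log2 unit was found for 8 of the 8 genes, against 35.1% of all accessions. A difference of at least 2 units was also found for 8 of 8, against 10.8%, and one of at least 3 units for 6 of 8, against 3.14%. The count at 2 units fell to 7 when the libraries were centred on the median or trimmed mean ratio of all accessions, which brought PCNA to 1.82, and to 5 with a pseudocount of 5, which left out CDK1, BIRC5 and CCNA2. The limit of 3 units was set after the values were seen. BIRC5, at 3.01, fell under it with both centrings, to 2.87, and with a pseudocount of 5 only CCND2 passed it, at 3.21. The genes CDK1, CCNB2 and BIRC5 entered this comparison through their fetal level alone, so a difference in their case was partly built in. The median difference was 3.34 over the 8 genes and 0.61 over all accessions compared.

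**Figure D1:**
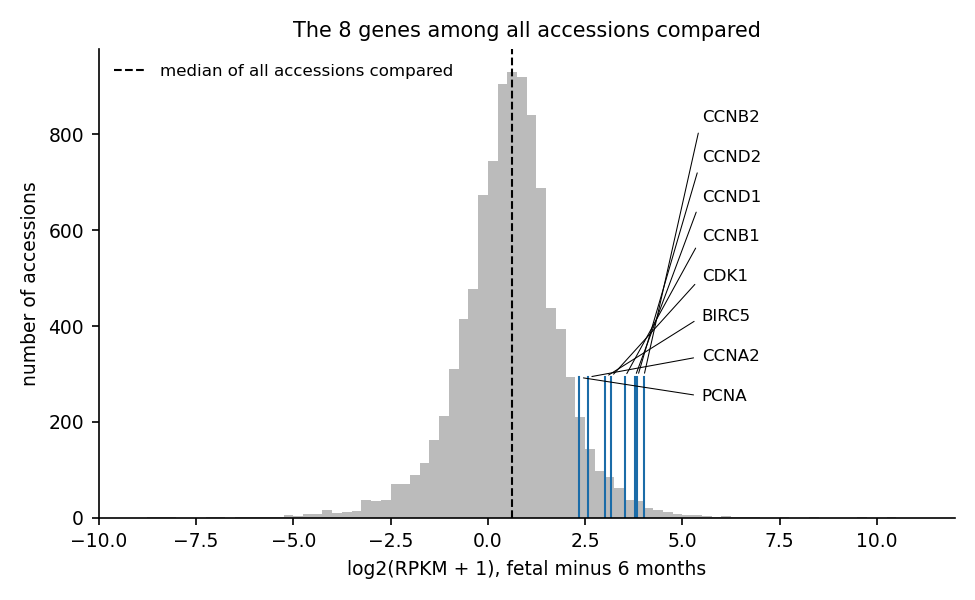
Distribution of the difference in log2(RPKM + 1), fetal minus 6 months, over the 9705 accessions compared (grey bars, number of accessions), with the 8 cell cycle genes as blue lines. The genes lie between 2.35 (PCNA) and 4.004 (CCNB2), to the right of the median of all accessions (dashed line, 0.61).

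The share of all accessions called was similar among accessions as abundant as these genes. CDK1 and BIRC5 had a mean RPKM under 10, where 37.5% of accessions were higher in the fetal library by at least 1 unit and 9.34% by at least 2. The other 6 genes had a mean RPKM of 10 to 100, where these shares were 32.4% and 11.8%. CCNB2 had the largest difference of the 8, at rank 83 of 9705, and PCNA the smallest, at rank 666. These places depend on the pseudocount of 1. With 0.1 the largest was that of CDK1 (6.33), and with 5 the largest was that of CCND2 (3.21) and the smallest that of CDK1 (1.37). A muscle sample is bulk tissue, so fewer dividing cells and less RNA per dividing cell cannot be told apart in any of these values.

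CDK1 (NM_174016, 1258 bases), the kinase that drives entry into mitosis, had 128 fetal reads (RPKM 7.94, interval 6.63 to 9.44). At 6 months it had 0 reads, where the fetal share would have given 91.4. A count of 0 allows up to 3 reads, a share of 3.28e-05% of the 6-month reads or an RPKM of 0.26. Set against that floor of 3 reads, the share of CDK1 reads was at least 30.5-fold higher in fetal muscle. The 95% interval used for the other levels reaches higher than this floor for a count of 0, to an RPKM of 0.32. The exact 95% interval of the ratio is likewise wider at 0 reads and also takes in the counting error of the fetal reads. It has its lower limit at 24.4. CDK1 was the least abundant of the 8 in the fetal library, where its partners CCNB1 and CCNB2 had 2.90 and 3.36 times its RPKM. Of 7016 accessions with a fetal RPKM of at least 5, 16 (0.228%) had 0 reads at 6 months. This share too is a description only, as its minimum used the fetal level alone.

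CCNB1 (NM_001045872, 1496 bases), the cyclin whose rise and destruction times mitosis, had 442 fetal reads (RPKM 23.1) and 15 at 6 months (RPKM 1.10). Its fetal read share was 21.03 times that at 6 months (interval 12.6 to 37.9). CCNB2 (NM_174264, 1505 bases), the second B-type cyclin of somatic cells, had 515 fetal reads (RPKM 26.7) and 10 at 6 months (RPKM 0.73). Its fetal share was 36.8 times the later one (19.8 to 77.1). The intervals of both B cyclins overlapped, and the ratio between their fold differences was 1.75 with an interval of 0.73 to 4.39. With 10 and 15 reads at 6 months, a difference between them was not detectable at this depth.

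BIRC5 (NM_001001855) had 197 fetal reads (RPKM 9.19) and 4 reads at 6 months (RPKM 0.26). Its fetal share was 35.2 times that at 6 months, with a wide interval of 13.5 to 130.3 that rests on the 4 reads. On the log2(RPKM + 1) scale the same gene differed by 3.01, against 5.14 on the log2 scale of read shares. The added 1 exceeds its 6-month RPKM and compresses its difference. The same compression applies to CDK1 (3.16), while CCND2, with an RPKM of 5.42 at 6 months, gave 3.85 against 4.07.

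CCNA2 stood apart from the other mitotic genes. This gene (NM_001075123) had 507 fetal reads (RPKM 21.6), close to CCNB1, but 47 reads at 6 months (RPKM 2.80), above CCNB1, CCNB2, BIRC5 and CDK1. Its fetal read share exceeded the 6-month share 7.70-fold (5.70 to 10.6). The ratio of CCNB1 to CCNA2 RPKM was 1.07 in the fetal library and 0.39 at 6 months. The fold difference of CCNB1 was 2.73 times that of CCNA2 (1.47 to 5.33), that of CCNB2 was 4.77 times (2.35 to 10.7) and that of BIRC5 was 4.57 times (1.63 to 17.7).

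PCNA (NM_001034494) had 1450 fetal reads (RPKM 56.4, interval 53.6 to 59.4) and 188 at 6 months (RPKM 10.2, interval 8.84 to 11.8). It was the most abundant of the 8 at 6 months and had the smallest fold difference, 5.51 (4.73 to 6.44). Its level at 6 months exceeded that of 64.2% of the accessions listed there, and in the fetal library that of 88.7%. The ratio of PCNA to CCNB1 RPKM was 2.45 in the fetal library and 9.35 at 6 months.

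The D cyclins had the highest summed RPKM of the 3 roles in the fetal library, 144.1 against 88.5 for the 5 mitotic genes and 56.4 for PCNA. These sums hold unlike numbers of genes and use full transcript lengths. Reads covered 49.5% of the PCNA transcript, so its place in this order depends on the length used. CCND1 (NM_001046273) had 811 fetal reads (RPKM 52.8) and 32 at 6 months (RPKM 2.92), a ratio of shares of 18.1 (12.7 to 26.6). CCND2 (NM_001076372), the most abundant of the 8 in the fetal library, had 1156 reads there (RPKM 91.3) and 49 at 6 months (RPKM 5.42), a ratio of 16.8 (12.7 to 22.9). The balance between the D cyclins was close in both libraries, with a CCND2 to CCND1 RPKM ratio of 1.73 in the fetal library and 1.86 at 6 months. The ratio of their fold differences was 1.07 (0.67 to 1.75). This interval still allows a difference between them of up to 1.75-fold.

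**Figure D2:**
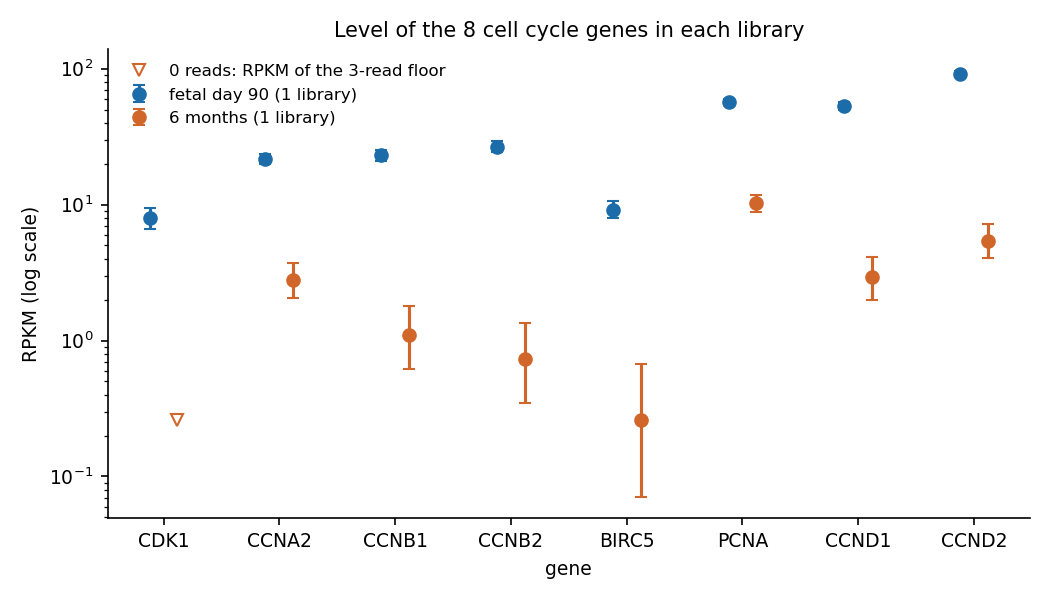
RPKM (log axis) of the 8 genes in the fetal library (blue) and the 6-month library (orange), 1 library each, with 95% counting intervals as bars. The open triangle marks the RPKM of 0.26 that 3 reads of CDK1 would give at 6 months, where it had 0 reads. The fetal and 6-month intervals do not overlap for any of the 8 genes.

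The order of the levels changed between the libraries. In the fetal library it ran from CCND2 (RPKM 91.3) through PCNA (56.4), CCND1 (52.8), CCNB2 (26.7), CCNB1 (23.1), CCNA2 (21.6) and BIRC5 (9.19) to CDK1 (7.94). The counting intervals of PCNA and CCND1 overlapped, as did those of CCNB2 and CCNB1, of CCNB1 and CCNA2, and of BIRC5 and CDK1. Overlap of intervals, here and at 6 months, does not show that levels are equal. Differences in level between genes within a library were not tested, and these levels use full transcript lengths. At 6 months it ran from PCNA (10.2) through CCND2 (5.42), CCND1 (2.92), CCNA2 (2.80), CCNB1 (1.10), CCNB2 (0.73) and BIRC5 (0.26) to CDK1 with 0 reads. There the interval of PCNA lay above that of CCND2 and that of CCNA2 above that of CCNB1, while every other pair of neighbours in this order overlapped. The interval of CCNA2 overlapped that of CCNB1 in the fetal library and that of CCND1 at 6 months.

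The main question for the set was how mitotic genes compared with PCNA and with D cyclins. A ratio of 2 genes' fold differences is free of library scaling, because both genes are read in the same libraries. The 5 mitotic genes together had 1789 fetal and 76 6-month reads, a ratio of shares of 16.8 (13.4 to 21.4). This was 3.05 times the fold difference of PCNA (2.30 to 4.07). The D cyclins together had 1967 and 81 reads, a ratio of 17.3 (13.9 to 21.9), or 3.15 times that of PCNA (2.39 to 4.17). The mitotic sum and the D cyclin sum were not told apart, with a ratio of 0.97 (0.70 to 1.35).

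The mitotic sum hides CCNA2, which supplied 47 of its 76 reads at 6 months. Without CCNA2, a grouping made after its value was seen, the other 4 mitotic genes had 1282 fetal and 29 6-month reads. Their ratio of shares was 31.6 (21.9 to 47.3). That was 5.73 times the fold difference of PCNA (3.83 to 8.85) and 1.82 times that of the D cyclins (1.17 to 2.90, or 0.92 to 3.85 when widened for 28 comparisons). The value against the D cyclins thus moved by over 1.5 times with CCNA2, and the excess over PCNA was present with and without it. On the log2(RPKM + 1) scale the medians were 3.16 for the mitotic genes, 3.81 for the D cyclins and 2.35 for PCNA. The mitotic median is the value of CDK1, which had 0 reads at 6 months. It is therefore set by the fetal level of CDK1 and the added 1. That scale compresses the genes with the lowest 6-month levels most, here CDK1, BIRC5, CCNB2 and CCNB1. Against the log2 scale of read shares, CCNA2 went from 2.94 to 2.57 and the D cyclin CCND1 from 4.18 to 3.78. With a pseudocount of 0.1 the mitotic median lay 0.59 above that of the D cyclins. With a pseudocount of 5 it lay under PCNA, at a difference of -0.24.

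**Figure D3:**
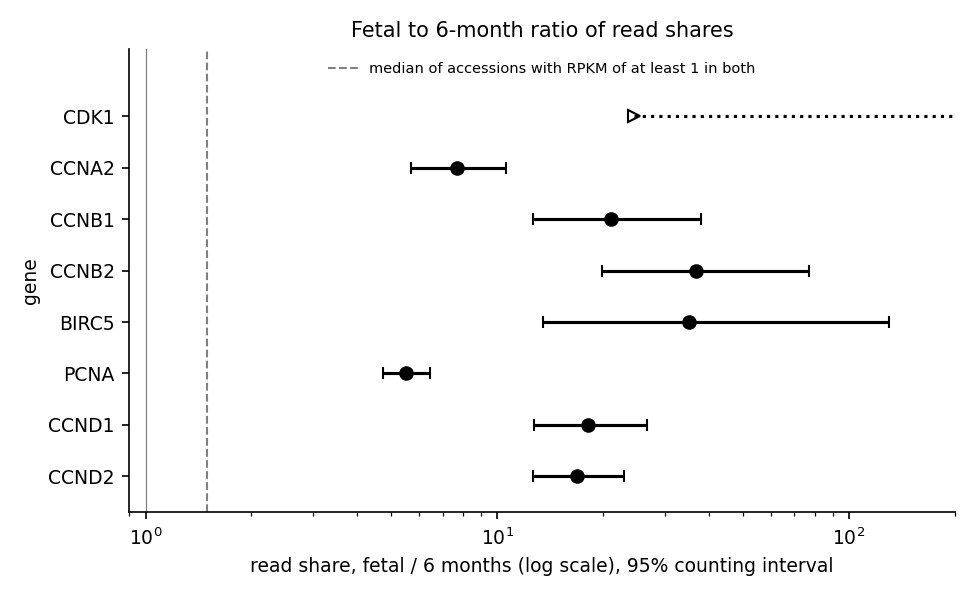
Ratio of read shares, fetal to 6 months (log axis), for each gene with its 95% counting interval. CDK1, with 0 reads at 6 months, is drawn as the lower limit of its interval, 24.4, with a dotted line. PCNA (5.51) and CCNA2 (7.70) lie lowest, the D cyclins at 16.8 and 18.1, and the dashed line marks the median shift of 1.49 over 8201 accessions.

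All 28 pairs of the 8 genes were compared in this way. The interval of the ratio of fold differences excluded 1 for 16 pairs, and for 12 pairs when the intervals were widened for 28 comparisons. These 12 set either PCNA or CCNA2 against another gene. PCNA separated from all others except CCNA2, whose fold difference was 1.40 times that of PCNA (0.99 to 2.0). CCNA2 separated from all others except PCNA. No pair among CDK1, CCNB1, CCNB2, BIRC5, CCND1 and CCND2 remained apart after widening. By the single intervals CCNB2 exceeded CCND2 by 2.18 times (1.08 to 4.87). By the same intervals CDK1 exceeded CCNB1, CCND1 and CCND2 by at least 1.02, 1.27 and 1.39 times.

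Reads of the 8 genes made up 0.041% of the fetal library and 0.0038% of the 6-month library, 5206 and 345 reads. Within these reads the make-up differed. The 5 mitotic genes took 34.4% of them in the fetal library and 22.03% at 6 months. PCNA took 27.9% and 54.5%, and the D cyclins 37.8% and 23.5%. Per length the same pattern held, with PCNA at 19.5% of the summed RPKM in the fetal library and 43.7% at 6 months.

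**Figure D4:**
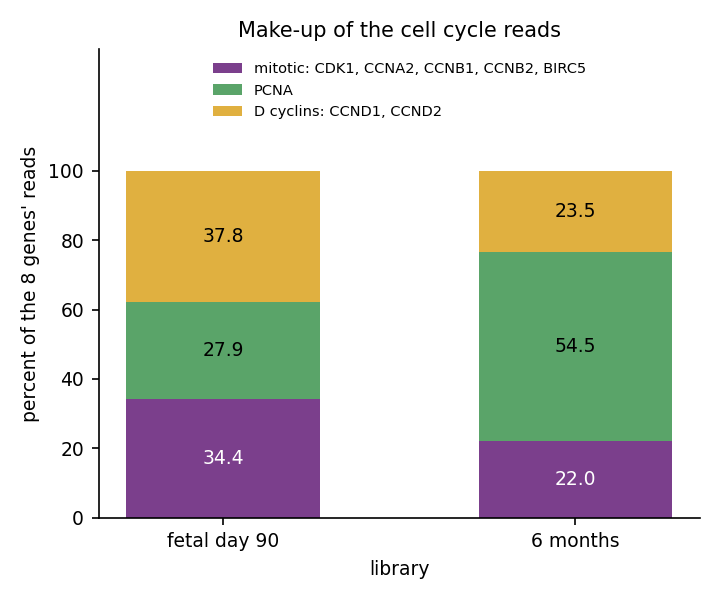
Share of the reads of the 8 genes taken by the mitotic genes, PCNA and the D cyclins in each library (stacked bars, percent). PCNA takes 27.9% in the fetal library and 54.5% at 6 months.

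Set against the general shift of 1.49-fold between the libraries, the fold differences were smaller. Relative to it, PCNA was 3.69-fold higher in fetal muscle, CCNA2 5.16-fold, CCND2 11.3-fold, CCND1 12.1-fold, CCNB1 14.1-fold, BIRC5 23.5-fold and CCNB2 24.6-fold. For CDK1 the lower limit of the interval came to 16.3-fold. Among 7667 accessions with at least 100 fetal reads, 499 (6.51%) had a fetal read share at least 10 times the later one, with counts under 3 set to 3. The same was found for 6 of the 8 genes, all but PCNA and CCNA2. The limit of 10-fold was set after the values were seen, and the minimum on fetal reads alone favours a fetal excess, so the count is a description only.

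The files also give the part of each transcript that reads covered, which the choice of genes did not use. PCNA was covered over 49.5% of its 2006 bases in the fetal library, at a read depth of 65.1 read-bases per base. Of 479 accessions read to within 1.2 times that depth, the median coverage was 89.7%, and 0.42% had less than PCNA. At 6 months PCNA was covered over 45.9%, against a median of 81.05% at like depth. The covered part of PCNA was thus 993 bases in the fetal library and 920 at 6 months, despite reads that differed 5.51-fold in share.

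BIRC5 was covered over 52.1% of its 1674 bases in the fetal library, where accessions of like depth had a median of 81.1%. The other 6 genes were covered over 75.5% (CDK1) to 96.4% (CCND1) in the fetal library. At 6 months the few reads of the D cyclins were spread widely. The 32 reads of CCND1 covered 90.0% of its 1199 bases and the 49 of CCND2 covered 86.2% of 988, against medians of 63.5% and 73.3% at like depth. The 47 reads of CCNA2 covered 51.7% of 1835 bases, against a median of 62.4%.

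**Figure D5:**
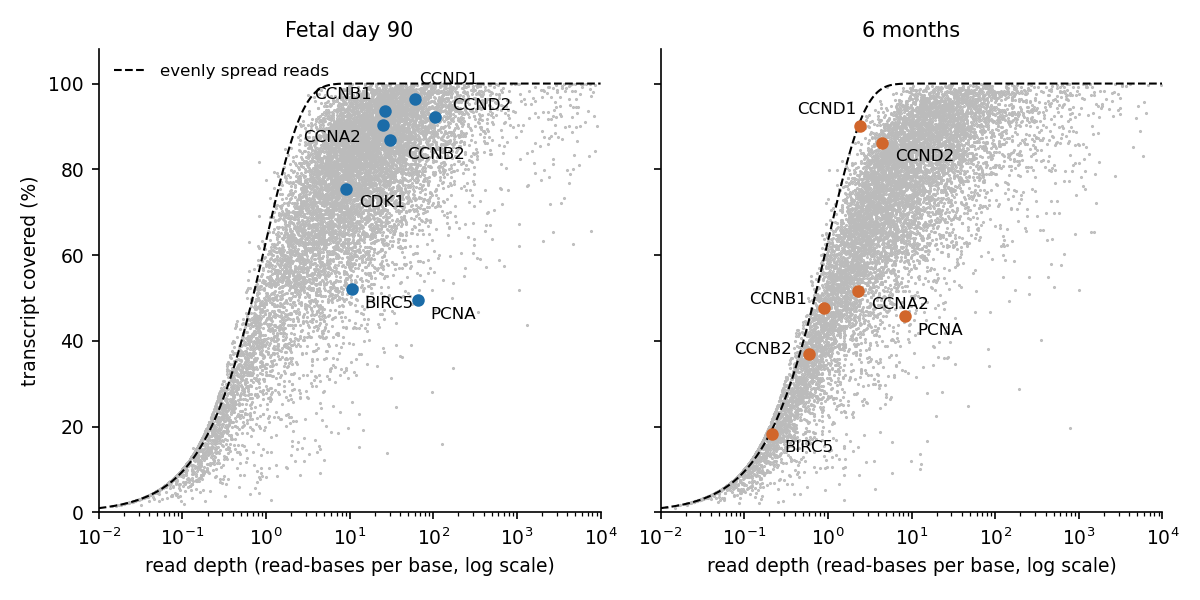
Percent of the transcript covered against read depth (log axis, read-bases per base) for every accession with reads (grey) and for the cell cycle genes (coloured) in the fetal and the 6-month library. The dashed curve, labelled evenly spread reads, is the coverage that reads placed at random along the transcript would give. PCNA lies far under accessions of its depth in both libraries, at 49.5% and 45.9%.

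A part of a transcript with no reads still counts in its length, so RPKM compares genes less well where coverage is low. With the covered bases of the deeper library as the length, a measure added after the coverage was seen, PCNA had 114.0 in the fetal library and CCND2 had 98.9. On this scale PCNA, not CCND2, was the highest of the 8 in both libraries, with 20.7 at 6 months. CCND1 came to 54.8 in the fetal library, BIRC5 to 17.6 and CDK1 to 10.5. The read shares and their ratios between libraries do not use the length and stay as given above.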

How the data were processed

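RNA sequencing of longissimus thoracis gave 1 fetal and 1 6-month library. For every transcript accession the authors deposited, per the file headers, the count of unique reads, the length, the percent of the transcript covered and the RPKM. The 8 genes were counted under cattle transcripts. How reads were aligned, to which release of the reference, whether by strand, and how reads shared between gene copies were counted is not stated. The deposited counts summed to the totals in the headers, so a missing accession had 0 reads. Reads of 90 bases were taken from accessions with 1 read (235 fetal, 326 at 6 months). From the deposited RPKM, log2(RPKM + 1) differences were computed, with a minimum RPKM of 1 in either library. From the deposited counts, ratios of read shares were given exact conditional binomial (Clopper-Pearson) 95% intervals, single RPKM values exact Poisson intervals, and ratios of 2 genes' fold differences exact conditional odds ratio intervals, widened to 99.8% for 28 pairs. PCR duplicates are not separate molecules, so these and the floor of 3 reads cover counting error only. The calling and the intervals were tested on simulated data that held counting error only. The accessions changed there all lay above a minimum level that CDK1 and BIRC5 do not reach. The simulation thus covers neither these 2 genes nor other sources of noise. The genes, lists and settings were chosen with earlier results of these data known. All 8 genes are named by rule, and other genes only where a table pairs accession and symbol. Alternatives covered the pseudocount, minimum RPKM and reads, threshold, and scaling. The tools were SciPy 1.17.1 and NumPy 2.4.6 for intervals, pandas 2.3.3 for tables and matplotlib 3.10.9 for plots, under Python 3.11.15.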

Additional observations from a re-analysis of the deposited data

How the results depend on the processing

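No paired analysis was possible because each age has 1 library, and for the same reason none could be left out. All 8 genes stayed higher in the fetal library by the call rule in 11 of 11 alternatives, and their differences ranged from 1.37 to 6.33. The alternatives for the minimum RPKM and minimum reads could not change these calls. They leave the differences as they are, and all 8 genes pass them through their fetal reads. At the limit of 2 log2 units, 7 of the 8 genes passed with median or trimmed mean centring and 5 with a pseudocount of 5. The mitotic median of 3.16 became 4.68 with a pseudocount of 0.1, 1.77 with 5, 4.93 with none and CDK1 at the floor, 3.62 with transcripts-per-million scaling, 3.49 without the 50 most abundant accessions and 3.56 with covered bases as length. The mitotic median minus PCNA, 0.81, became 2.23, -0.24 (reversed), 2.47, 1.34, 1.33 and 1.16 in these settings, and 1.34 with both median centring and trimmed mean centring. As reported and with both centrings, the mitotic median was the value of CDK1, 3.16. Centring scales the 6-month levels, so it left the 0 reads of CDK1 as they were and lowered PCNA from 2.35 to 1.82. The changes with centring, here and against the D cyclins, thus came from PCNA and the D cyclins alone. The mitotic median minus the D cyclin median, -0.65, reversed to 0.59 with a pseudocount of 0.1 and to 0.80 with none, and became -0.18 with transcripts-per-million scaling, -0.17 with median centring and -0.18 with the trimmed mean. On this scale the order of mitotic genes and D cyclins is thus set by the pseudocount. Over all accessions, fetal calls numbered 3411 and 6-month calls 918. These counts became 1811 fetal with a pseudocount of 5, 1051 and 339 with a threshold of 2, 2162 and 1674 with median centring and 2169 and 1673 with the trimmed mean. The fetal share of calls was 78.8%, and 56.4% and 56.5% with these centrings.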
